A study of Mus musculus with 12 samples.

Results

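The genes described here are 36 genes of DNA replication and mitosis, measured in mouse liver. They were matched by gene name among the non-control spots of the array, and older names in the files (Cdc2a for Cdk1, for example) were matched through the spot's transcript accession. They fall into 4 roles: 11 genes of origin licensing and the helicase, 6 of nucleotide supply and the replication fork, 5 that control entry into S phase, and 14 cyclins and other genes of G2 and mitosis. All 36 had a probe, and 35 of them were among the 19340 genes tested; Orc1 was not well above background on any of the 12 arrays.

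The study asked how the liver of each sex responds to a glucocorticoid. All mice were C57BL/6, 11 weeks old and adrenalectomized, so that their own main source of glucocorticoid was removed in the controls as well. Males or females in diestrus 1 received an intraperitoneal injection of vehicle (phosphate-buffered saline) or of dexamethasone, a synthetic glucocorticoid, at 1 mg/kg, and the liver was sampled 6 h later. Each of the 4 groups held 3 mice with an array each, hybridized with Cy3-labelled RNA of the whole organ. Signals are given as scaled log2 signals, that is log2 of the processed spot intensity minus the same array's 75th percentile, so that 0 is the brightness of that percentile; a level belongs to its probe and is not compared between genes.

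A cell that prepares to divide loads the Mcm2 to Mcm7 helicase ring onto origins of replication with the help of Orc1, Cdc6 and Cdt1, which is called licensing. S phase then needs deoxynucleotides, made by ribonucleotide reductase (Rrm1 and Rrm2), thymidylate synthase (Tyms) and thymidine kinase (Tk1), and mitosis follows under cyclin B with Cdk1, the Aurora kinases and Plk1. Most hepatocytes of an adult liver are out of the cell cycle, and proliferating blood and other non-parenchymal cells also contribute RNA to a whole-liver sample.

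With dexamethasone, the helicase genes Mcm2, Mcm3, Mcm4, Mcm5 and Mcm6 fell in both sexes, together with Tk1, E2f1 and Ccnd2, and Rrm2 rose in both. In males 18 of the 35 tested genes fell, 2 rose (Rrm2 and Mcm10) and 15 did not pass the test (limma, adjusted p under 0.05), against 12.1% lower, 10.4% higher and 22.5% in either direction among all genes tested. In females 9 fell, 1 rose and 25 did not pass, against 6.88% lower, 6.79% higher and 13.7% in either direction among all genes. The median log2 fold change of the 35 genes was -0.98 in males and -0.58 in females, and that of all genes was 0.01 and 0.02. In both sexes at once, 8 of the 35 fell and 1 rose, where 5.57% of all genes fell and 4.78% rose. The vehicle and dexamethasone arrays did not overlap, with dexamethasone lower, for 20 of 35 genes in males (21.5% of all genes) and for 18 of 35 in females (15.4% of all genes). They did not overlap, with dexamethasone higher, for 2 of 35 in males (22% of all genes) and 1 of 35 in females (15.5% of all genes). Fewer genes fell in males without male vehicle 1 (7 of 35), male vehicle 2 (10), male dexamethasone 1 (10) or male dexamethasone 3 (9) and with the slide as a block (10), and after normexp background correction, an alternative correction for the local background, 4 fell in males (Mcm3, Cdt1, Tk1 and Ccnd2) and 3 in females (Mcm3, Mcm4 and Mcm6). Falls among all 19340 genes dropped as well. In males they went from 2339 to 1308, 1729, 1832 and 1896 without these 4 arrays in that order. With the slide as a block 1737 fell in males. After normexp correction 482 fell in males and 243 in females, where 1331 fell in females in the main fit. Mcm3 alone of the 8 genes that fell in both sexes kept both calls after normexp correction, and Rrm2 kept both of its own. With the local background capped before that correction, a variant chosen after seeing the data, 15 of 20 male calls were kept. In females 10 of 10 calls were kept there, and all 8 genes that fell in both sexes kept both calls. Among all genes, 1617 fell in males and 1268 in females in that setting.

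Fold changes are given as log2 fold change ± standard error from 1 limma fit to the 12 arrays, with n = 3 arrays in each group. Nothing in the sources used here says how mice were assigned, and p-values measure the spread between these animals. The upper-quartile signal of the arrays ran from 578 to 1251 intensity units, and the share of probes well above background was 65.1 to 71.8%. The arrays sat on 3 slides that each held 3 or 4 of the groups, and the median of the 35 genes within a slide was -1.03 and -1.02 in males (slides 1 and 3) and -0.87 and -0.51 in females (slides 1 and 2). On each slide with both treatments of a sex, vehicle arrays had lower positions than dexamethasone arrays, so position and treatment cannot be told apart within a slide. Over the slides, male vehicle arrays were at position 1 and male dexamethasone arrays at 2 or 3. Female vehicle 3 was at position 4, on a slide without a female dexamethasone array, and female dexamethasone 1 was at position 3. In whole-liver RNA, fewer cells of a type and less RNA per cell cannot be told apart either.

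**Figure D1:**
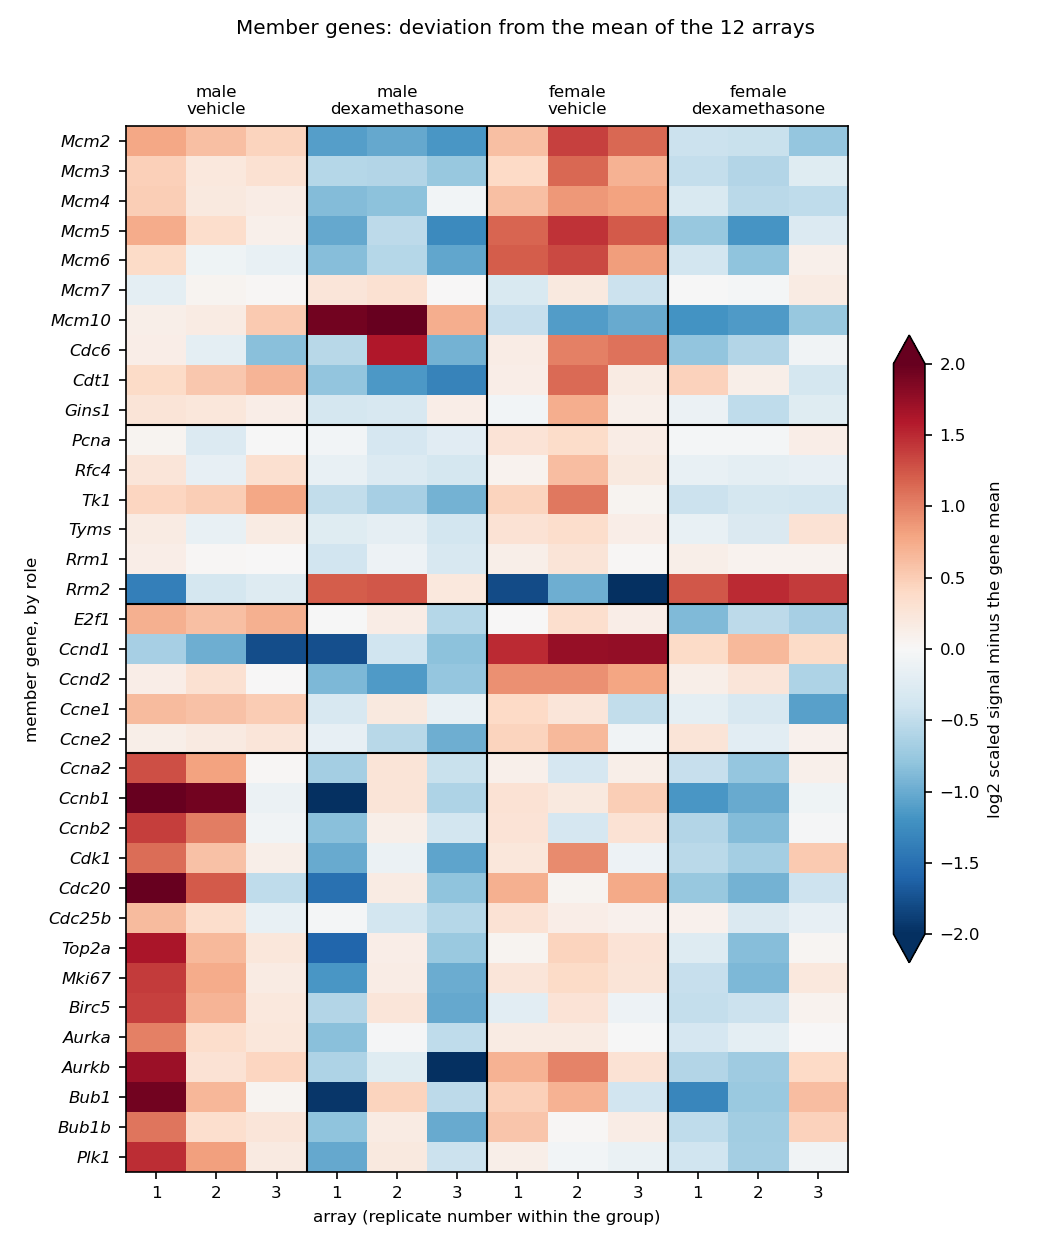
Scaled log2 signal of the 35 tested genes (rows, by role) in each of the 12 arrays (columns, 3 per group), shown as the deviation from the gene's mean over the arrays; red is above and blue below the mean, and colours saturate at the ends of the bar. Mcm2 to Mcm6 are low in all 6 dexamethasone columns relative to the vehicle columns of the same sex, Rrm2 and male Mcm10 show the opposite colours, and the mitosis rows are darkest red in male vehicle 1.

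In the licensing and helicase group, 6 of 10 tested genes fell in males and 5 of 10 in females (12.1% and 6.88% of all genes fell), with medians of -0.86 and -1.20. Mcm2, a helicase subunit, read -1.50, -1.67 and -1.82 in the male vehicle arrays and -3.38, -3.29 and -3.43 in the male dexamethasone arrays. In females it read -1.68, -0.91 and -1.12 with vehicle and -2.69, -2.72 and -3.05 with dexamethasone. All 6 dexamethasone arrays lay below all 6 vehicle arrays. The fall was -1.70 ± 0.19 in males (0.307 of the vehicle level, limma adjusted p = 0.000376) and -1.59 ± 0.19 in females (0.333 of it, adjusted p = 0.000939). After normexp background correction both Mcm2 calls were lost, at -0.64 in males (adjusted p = 0.406) and -0.79 in females (0.364). With the capped local background both were kept, at -1.10 in males (limma adjusted p = 0.000737) and -1.23 in females (0.000514). The Mcm2 probe lies at chr6:88958718-88958777 on the minus strand (mm7, the build of the array design).

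Mcm5, another subunit of the ring, had the largest fall of these genes in females. Its male values were -1.06, -1.44 and -1.69 with vehicle and -2.82, -2.32 and -3.07 with dexamethasone. Its female values were -0.64, -0.35 and -0.58 with vehicle and -2.56, -2.98 and -2.07 with dexamethasone. Neither pair of groups overlapped. The female vehicle values lay above the male ones, but that difference between the sexes did not pass the test. The change was -1.34 ± 0.26 in males (adjusted p = 0.00527) and -2.02 ± 0.26 in females (adjusted p = 0.00128, 0.247 of the vehicle level). After normexp correction Mcm5 passed in neither sex, at -0.57 in males (adjusted p = 0.406) and -1.40 in females (0.102). With the capped local background it passed in both, at -0.944 in males (adjusted p = 0.00446) and -1.695 in females (0.000154).

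Mcm6 read 1.76, 1.28 and 1.21 in male vehicle arrays and 0.52, 0.80 and 0.34 in male dexamethasone arrays. Female vehicle arrays read 2.58, 2.69 and 2.20, and female dexamethasone arrays 0.99, 0.57 and 1.48. The groups of each sex were apart, with the widest gap in females. The fall was -0.87 ± 0.25 in males (adjusted p = 0.0291) and -1.48 ± 0.25 in females (adjusted p = 0.00453), and the male call was lost without male vehicle 1 or 2 or male dexamethasone 1 or 3 (adjusted p 0.0539 to 0.118) with the slide as a block (-0.74, adjusted p = 0.0776) and after normexp correction (-0.90, 0.0583). The male Mcm6 call was kept with the capped local background (-0.864, adjusted p = 0.0186).

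Mcm3 read 0.57, 0.30 and 0.41 with vehicle and -0.47, -0.49 and -0.65 with dexamethasone in males. Female arrays read 0.49, 1.24 and 0.80 with vehicle and -0.38, -0.49 and -0.15 with dexamethasone. Every dexamethasone array was below 0 and every vehicle array above it. The fall was -0.97 ± 0.18 in males and -1.18 ± 0.18 in females (adjusted p = 0.00452 and 0.00312), and a second Mcm3 probe moved alike, by -1.05 and -1.16.

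Mcm4 read 1.50, 1.20 and 1.16 with vehicle and 0.14, 0.19 and 0.95 with dexamethasone in males. Female arrays read 1.61, 1.87 and 1.81 with vehicle and 0.71, 0.47 and 0.50 with dexamethasone. Male dexamethasone 3 lay nearest to its vehicle group, and the groups did not overlap. The fall was -0.86 ± 0.21 in males (adjusted p = 0.014) and -1.21 ± 0.21 in females (adjusted p = 0.00514). The male Mcm4 call was lost without male vehicle 1 (adjusted p = 0.0633), male dexamethasone 1 (0.05) or male dexamethasone 2 (0.0537) and after normexp correction (0.0623). It was kept with the capped local background (-0.835, adjusted p = 0.00787).

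Mcm7, the remaining subunit of the same ring, did not follow the others. It read 1.51, 1.76 and 1.73 with vehicle and 1.95, 2.01 and 1.71 with dexamethasone in males, and 1.40, 1.91 and 1.28 against 1.71, 1.67 and 1.87 in females. The groups overlapped in both sexes. The difference was 0.22 ± 0.17 in males (95% interval -0.15 to 0.60, adjusted p = 0.393) and 0.22 ± 0.17 in females (-0.16 to 0.60, adjusted p = 0.447). Those intervals lie wholly above the fitted falls of Mcm2 to Mcm6, though a difference between probes was not tested.

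Cdt1, the loading factor, fell in males by 1.63 on the log2 scale. Its male vehicle arrays read 1.23, 1.38 and 1.52 and its male dexamethasone arrays 0.05, -0.30 and -0.49, while female arrays read 0.98, 1.98 and 1.01 with vehicle and 1.31, 0.95 and 0.48 with dexamethasone. The male groups were more than 1 log2 unit apart and the female groups overlapped. The change was -1.63 ± 0.29 in males (adjusted p = 0.00321) and -0.41 ± 0.29 in females (adjusted p = 0.4). The difference between the sexes in this response, 1.22 ± 0.41, did not pass the test (adjusted p = 0.781).

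Mcm10, which joins the helicase when origins fire, moved against the ring in males. It read 5.49, 5.53 and 5.89 with vehicle and 7.30, 7.57 and 6.08 with dexamethasone in males, and 4.90, 4.24 and 4.35 against 4.17, 4.23 and 4.61 in females. The male groups were apart, with male dexamethasone 3 close to the vehicle arrays, and the female groups overlapped. Mcm10 rose by 1.35 ± 0.34 in males (2.55 times the vehicle level, adjusted p = 0.0175) and differed by -0.16 ± 0.34 in females (adjusted p = 0.814). The male call was lost without male vehicle 1 or 2 or male dexamethasone 1 or 2 (adjusted p 0.055 to 0.0665), after normexp correction (1.12, 0.0976) and in a fit to the male arrays alone (0.0508), and the difference between the responses, -1.51 ± 0.48, did not pass (adjusted p = 0.745). The male Mcm10 call was kept with the capped local background (1.301, adjusted p = 0.014). Only 1 probe stands for Mcm10 on this array, at chr2:4908072-4908131 on the minus strand (mm7). Whether that probe reads Mcm10 alone could not be checked here, so these values are those of the probe.

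With the probes used, Cdc6 and Gins1 (a subunit of the GINS part of the helicase) did not pass in either sex. Cdc6 differed by 0.33 ± 0.57 in males and -1.23 ± 0.57 in females (adjusted p = 0.738 and 0.19). Its used probe was well above background on 10 of 12 arrays, and male dexamethasone 2 read -4.26 while the other 2 arrays of that group were near background at -6.43 and -6.82. A dimmer Cdc6 probe, above background on 5 arrays, gave -1.32 in males and -1.31 in females. It passed in both sexes in a limma fit to all kept probes (adjusted p = 0.0104 and 0.0167). The probes therefore disagree in sign in males and agree in females. Cdc6 in females passed without male dexamethasone 2 (adjusted p = 0.037). Gins1 differed by -0.39 ± 0.21 and -0.55 ± 0.21 (adjusted p = 0.219 and 0.114). Orc1, a subunit of the origin recognition complex, has no measured level here.

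The promoters of Mcm5, Mcm6 and Mcm7 are shown because Mcm5 and Mcm6 fell in both sexes, Mcm7 did not pass in either, and all of them carry the same kind of motif. Each sequence is the 250 bases before the annotated start of the gene (RefSeq, GRCm38.p6), read 5′ to 3′ on the gene's strand, at chr8:75109259-75109508 (plus), chr1:128359706-128359955 (minus) and chr5:138171884-138172133 (minus). Capitals mark matches on either strand to E2F letters (TTTGGCGC, TTTCGCGC or TTTCCCGC), to the CHR (cell cycle genes homology region, TTTGAA or TTCGAA) and to the CCAAT box; adjoining or overlapping matches run together.
Mcm5: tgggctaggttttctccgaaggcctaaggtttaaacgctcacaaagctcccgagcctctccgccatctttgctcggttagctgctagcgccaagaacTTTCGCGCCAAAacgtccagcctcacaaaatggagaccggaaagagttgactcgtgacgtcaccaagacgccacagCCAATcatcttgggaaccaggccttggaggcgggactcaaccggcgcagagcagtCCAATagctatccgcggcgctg
Mcm6: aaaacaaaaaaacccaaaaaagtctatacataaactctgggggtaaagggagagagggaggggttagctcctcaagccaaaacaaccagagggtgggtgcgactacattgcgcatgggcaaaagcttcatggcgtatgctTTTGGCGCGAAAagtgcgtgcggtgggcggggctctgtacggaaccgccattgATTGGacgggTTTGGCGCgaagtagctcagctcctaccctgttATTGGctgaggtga
Mcm7: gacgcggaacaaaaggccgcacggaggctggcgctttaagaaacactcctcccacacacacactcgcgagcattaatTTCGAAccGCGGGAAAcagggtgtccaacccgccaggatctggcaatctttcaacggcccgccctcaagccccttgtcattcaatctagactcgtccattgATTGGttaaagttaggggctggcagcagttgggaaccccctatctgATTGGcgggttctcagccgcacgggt

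The table of promoters held 29 of the 36 genes; Mcm4, Gins1, Ccnd1, Ccnd2, Ccne2, Ccna2 and Aurkb had no entry. Mcm7 had 2 entries, of which only the first was used and shown. The share over all promoters counts every entry, and each member counts once. An E2F match stood in 5 of 9 promoters of the licensing group (Mcm5, Mcm6, Mcm7, Cdc6 and Orc1), where 1.53% of all 32841 promoters in the table hold one. E2F proteins bind such letters in replication genes, but a match is only a description of the sequence. Mcm5 has 2 overlapping matches on opposite strands, starting 153 and 149 bases before the start site, Mcm6 has 3 matches, and Mcm7 has 1, 165 bases before it. Genes with the motif thus include members that fell in both sexes and a member that did not pass. Mcm2 and Mcm3, which fell in both sexes, have no E2F match in this window, and neither does Mcm10. A CCAAT box stood in 7 of the 9 licensing promoters (33.9% of all promoters).

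**Figure D2:**
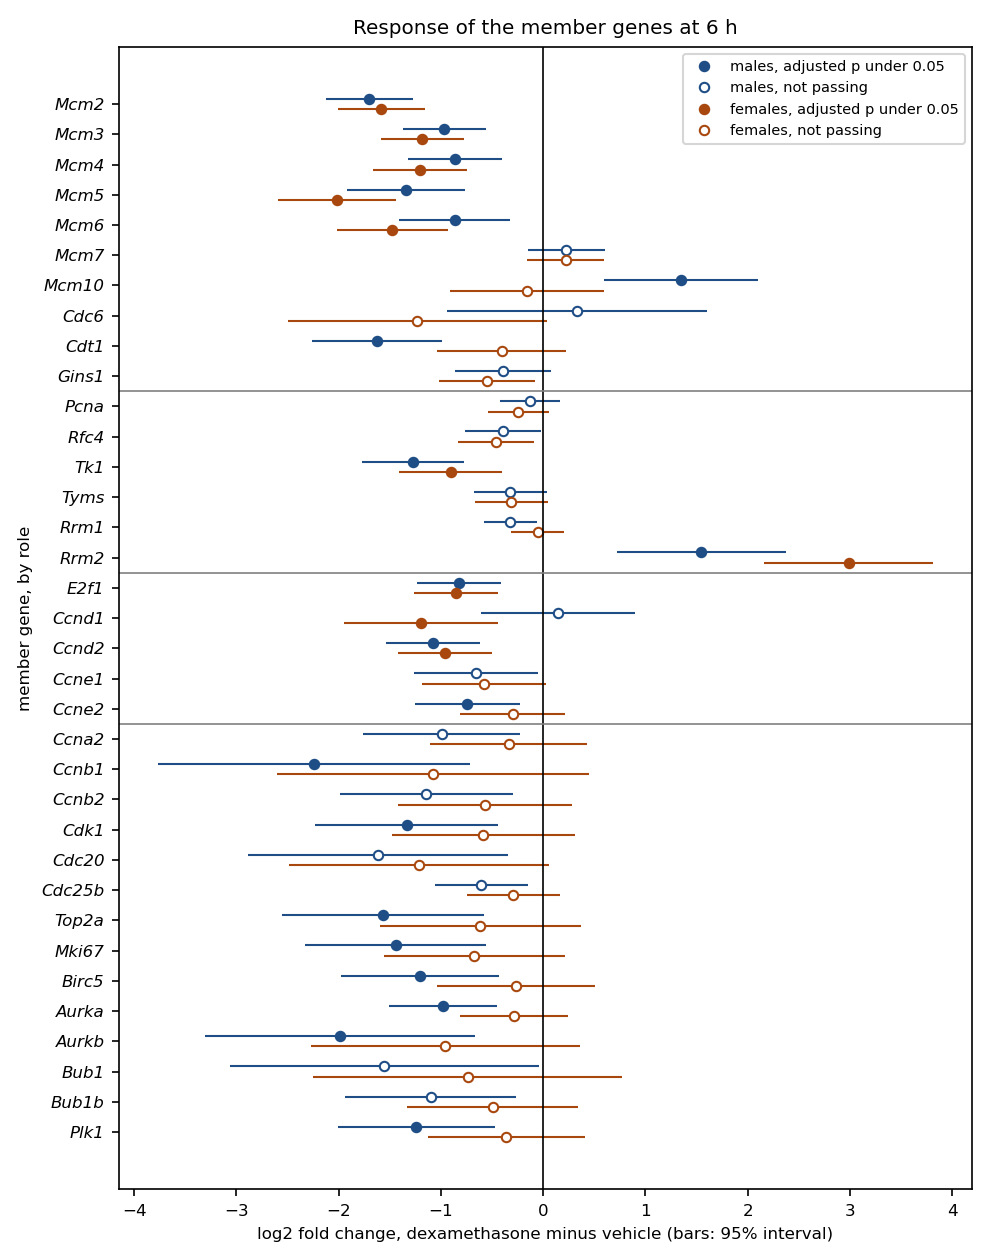
Log2 fold change of dexamethasone against vehicle (x axis, bars are 95% intervals) for the 35 tested genes by role, males in blue and females in orange; filled points passed the limma test at an adjusted p under 0.05. Mcm2 to Mcm6 lie left of 0 in both sexes, Rrm2 lies right of 0 in both, and the 14 mitosis genes lie left of 0 in both sexes in this fit, while 7 of them in males and 9 in females lie right of 0 after normexp background correction. The median of all genes was then 0.26 in males and 0.24 in females. With the local background capped before that correction, 14 of 14 in males and 13 of 14 in females lay left of 0.

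In the nucleotide supply and fork group, Tk1 fell and Rrm2 rose in both sexes, and the other 4 genes did not pass in either. Tk1, the salvage enzyme thymidine kinase, read 1.91, 1.96 and 2.25 with vehicle and 0.97, 0.81 and 0.52 with dexamethasone in males, and 1.92, 2.52 and 1.52 against 1.03, 1.12 and 1.10 in females. The groups were apart in both sexes. The fall was -1.27 ± 0.23 in males (0.414 of the vehicle level, adjusted p = 0.00344) and -0.90 ± 0.23 in females (0.535 of it, adjusted p = 0.0255). The female call was lost without any 1 of 5 female arrays (all but female vehicle 3), with adjusted p of 0.0517 to 0.0713, and also after normexp correction (0.0643), with median scaling (0.0586) and in a fit to the female arrays alone (0.094). It was kept with the capped local background (-0.874, adjusted p = 0.0158).

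Rrm2, the small subunit of ribonucleotide reductase, was the only one of the 35 genes that rose in both sexes. It read -1.37, -0.36 and -0.26 with vehicle and 1.21, 1.23 and 0.21 with dexamethasone in males. In females it read -1.80, -0.99 and -2.06 with vehicle and 1.23, 1.49 and 1.40 with dexamethasone. All 6 dexamethasone arrays were above 0 and all 6 vehicle arrays below it, with the smallest step in the males. Rrm2 rose by 1.55 ± 0.37 in males (2.92 times the vehicle level, adjusted p = 0.0144) and by 2.99 ± 0.37 in females (7.94 times, adjusted p = 0.00108). The male call was lost without male vehicle 1 (adjusted p = 0.0588) or male dexamethasone 2 (0.0541), and the male step was 2.60 within slide 1 and 1.07 within slide 3. The difference between the sexes in the response, 1.44 ± 0.53, did not pass (adjusted p = 0.839).

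Rrm1, the large subunit of the same enzyme, did not move with Rrm2. It read 0.26, 0.16 and 0.13 with vehicle and -0.25, 0.03 and -0.19 with dexamethasone in males, and 0.25, 0.39 and 0.16 against 0.24, 0.19 and 0.20 in females. The male groups were apart by a small step and the female groups overlapped. The difference was -0.32 ± 0.12 in males (adjusted p = 0.0744) and -0.05 ± 0.12 in females (95% interval -0.31 to 0.20, adjusted p = 0.821).

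Pcna, the sliding clamp of the fork, read between 2.90 and 3.60 on all 12 arrays and differed by -0.13 ± 0.13 in males and -0.24 ± 0.13 in females (adjusted p = 0.549 and 0.269). Rfc4, a subunit of the clamp loader, differed by -0.39 ± 0.17 and -0.46 ± 0.17 (adjusted p = 0.122 and 0.0965). Tyms differed by -0.32 ± 0.16 and -0.31 ± 0.16 (adjusted p = 0.185 and 0.243), and 1 of its other probes gave 0.25 in males, against the sign of the probe used. These 3 genes therefore showed no call in either sex, with point estimates below 0 for the probes used.

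The Rrm2 promoter is shown because its gene rose while most of the group did not. It lies at chr12:24708004-24708253 on the plus strand (RefSeq, GRCm38.p6), with capitals as above.
Rrm2: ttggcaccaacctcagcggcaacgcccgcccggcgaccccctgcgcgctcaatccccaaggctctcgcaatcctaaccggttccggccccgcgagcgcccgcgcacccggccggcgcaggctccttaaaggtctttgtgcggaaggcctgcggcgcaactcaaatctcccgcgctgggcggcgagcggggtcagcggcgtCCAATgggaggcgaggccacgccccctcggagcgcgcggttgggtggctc

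It holds a CCAAT box 50 bases before the start and no match to the E2F or CHR letters. None of the 6 promoters of the nucleotide supply and fork group held an E2F or CHR match, and 3 of them held a CCAAT box. That no match was found says only that these letters are absent from this window.

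**Figure D3:**
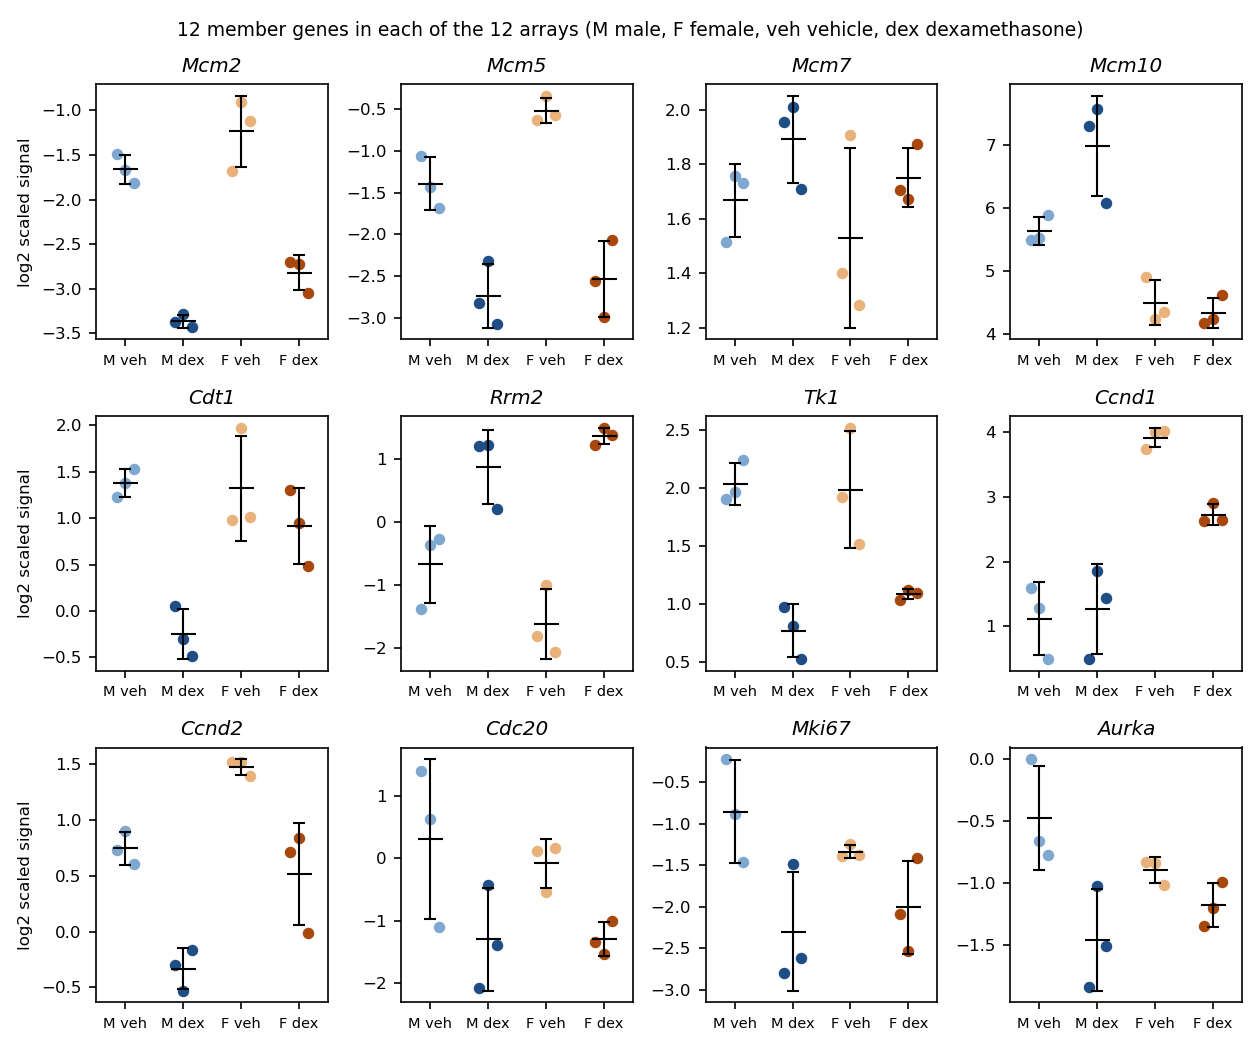
Scaled log2 signal of 12 genes in each array (points), with the group mean and standard deviation (black, n = 3); each panel has its own y axis. Mcm2, Mcm5 and Tk1 step down with dexamethasone in both sexes, Rrm2 steps up, Mcm10 rises and Cdt1 falls in males, and Ccnd1 is highest in the female vehicle arrays.

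Among the 5 genes that control entry into S phase, 3 fell in each sex (12.1% of all genes fell in males and 6.88% in females), and E2f1 and Ccnd2 did so in both. E2f1, the transcription factor that drives many replication genes, read -1.58, -1.70 and -1.58 with vehicle and -2.30, -2.15 and -2.87 with dexamethasone in males. In females it read -2.29, -1.95 and -2.17 with vehicle and -3.18, -2.82 and -2.96 with dexamethasone. The groups were apart in each sex, and male dexamethasone 3 was the lowest male array. The fall was -0.82 ± 0.19 in males (adjusted p = 0.0105) and -0.85 ± 0.19 in females (adjusted p = 0.0141); the female call was lost without female dexamethasone 1 (adjusted p = 0.0515). After normexp correction E2f1 passed in neither sex, at -0.32 in males (adjusted p = 0.57) and -0.16 in females (0.784). With the capped local background it passed in both, at -0.593 in males (adjusted p = 0.0104) and -0.58 in females (0.0153). A second E2f1 probe fell by 1.08 and 1.12 on the log2 scale.

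Ccnd2 (cyclin D2) read 0.73, 0.90 and 0.60 with vehicle and -0.30, -0.53 and -0.17 with dexamethasone in males. Female arrays read 1.52, 1.51 and 1.40 with vehicle and 0.72, 0.84 and -0.01 with dexamethasone. The groups were apart in both sexes and female levels were above male levels under each treatment, though under vehicle that difference did not pass the test. The fall was -1.08 ± 0.21 in males (adjusted p = 0.00475) and -0.96 ± 0.21 in females (adjusted p = 0.0131), and 2 further probes fell by 1.22 and 1.17 in males and by 1.05 and 0.99 in females. The female Ccnd2 call was lost after normexp correction (-0.89, adjusted p = 0.0555) and in a fit to the female arrays alone (0.0692). It was kept with the capped local background (-0.906, adjusted p = 0.00661).

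Ccnd1 (cyclin D1), the D-type cyclin of hepatocytes that enter the cycle, passed the test in females and not in males. It read 1.59, 1.28 and 0.49 with vehicle and 0.49, 1.86 and 1.44 with dexamethasone in males, and 3.74, 4.00 and 4.02 against 2.64, 2.91 and 2.64 in females. The male groups overlapped and the female groups were apart. Ccnd1 differed by 0.15 ± 0.34 in males (adjusted p = 0.812) and fell by 1.19 on the log2 scale in females (standard error 0.34, adjusted p = 0.0429). The female call was lost without any 1 of 8 arrays, which include all 6 female arrays, male vehicle 2 and male dexamethasone 3 (adjusted p 0.0528 to 0.107), with the slide as a block (-1.11, adjusted p = 0.0568), after normexp correction (-1.34, 0.103) and without the filter on dim probes (0.0515). It was kept with the capped local background (-1.183, adjusted p = 0.023). The difference between the responses, -1.34 ± 0.48, did not pass (adjusted p = 0.822). The array design places the Ccnd1 probe on an unplaced part of chromosome 7.

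Ccne2 (cyclin E2) fell in males, from -4.08, -4.02 and -3.95 to -4.36, -4.75 and -5.17, and in females it read -3.75, -3.54 and -4.26 with vehicle and -3.93, -4.40 and -4.11 with dexamethasone. The male groups were apart and the female groups overlapped. The change was -0.74 ± 0.23 in males (adjusted p = 0.0422) and -0.30 ± 0.23 in females (adjusted p = 0.45). The male call was lost without any male array but male dexamethasone 1 and without female vehicle 1 or female dexamethasone 1 (adjusted p 0.0512 to 0.141), and under 5 of the other settings (0.0506 to 0.117). After normexp correction the male Ccne2 value was 0.60, and with the local background capped before that correction it was 0.009. Ccne1 (cyclin E1) differed by -0.66 ± 0.27 in males and -0.58 ± 0.27 in females without passing (adjusted p = 0.111 and 0.194).

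In the group of G2 cyclins and mitosis, 8 of 14 genes fell in males and none of 14 passed in females (limma; 12.1% of all genes fell in males and 6.88% in females). All 14 fold changes were below 0 in both sexes, with medians of -1.29 and -0.58, but after normexp background correction 7 of 14 in males and 9 of 14 in females were above 0. That correction moved the median of all genes to 0.26 in males and 0.24 in females, so 0 is not the middle of all genes there. With the capped local background, 14 of 14 in males and 13 of 14 in females were below 0. In males the genes that passed were Ccnb1, Cdk1, Top2a, Mki67, Birc5, Aurka, Aurkb and Plk1, and Ccna2, Ccnb2, Cdc20, Cdc25b, Bub1 and Bub1b did not. The difference between the sexes was above 0 for all 14 genes, from 0.31 to 1.16, and none passed, where 1 of 19340 genes (0.00517%) did.

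Mki67, the marker of proliferating cells, read -0.22, -0.89 and -1.46 with vehicle and -2.80, -1.48 and -2.62 with dexamethasone in males. In females it read -1.39, -1.25 and -1.37 with vehicle and -2.09, -2.53 and -1.41 with dexamethasone. Male vehicle 1 was the highest array, and male vehicle 3 and male dexamethasone 2 nearly met. The fall was -1.44 ± 0.40 in males (0.368 of the vehicle level, adjusted p = 0.0265), and the female difference was -0.67 ± 0.40 (adjusted p = 0.31). A second Mki67 probe gave -1.60 in males and -0.77 in females.

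Ccnb1 (cyclin B1) read -3.12, -3.35 and -5.40 with vehicle and -7.67, -5.03 and -5.91 with dexamethasone in males, and -5.00, -5.09 and -4.79 against -6.45, -6.29 and -5.38 in females. Male vehicle 3 lay among the male dexamethasone arrays, and male dexamethasone 1 was not well above background. The difference was -2.24 ± 0.69 in males (adjusted p = 0.0404) and -1.08 ± 0.69 in females (adjusted p = 0.348). Cdk1, the kinase that cyclin B activates, read -2.77, -3.30 and -3.77 with vehicle and -4.89, -4.01 and -4.95 with dexamethasone in males, and -3.67, -2.95 and -3.99 against -4.42, -4.57 and -3.37 in females. The male groups were apart and the female groups overlapped. Cdk1 fell by 1.34 on the log2 scale in males (standard error 0.40, adjusted p = 0.0373), the female difference was -0.58 ± 0.40 (adjusted p = 0.39), and a dim second probe, above background on 4 arrays, gave 0.10 in males and 1.22 in females.

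Top2a (topoisomerase II alpha) read -4.24, -5.24 and -5.66 with vehicle and -7.47, -5.75 and -6.61 with dexamethasone in males, and -5.83, -5.43 and -5.61 against -6.14, -6.73 and -5.84 in females. The groups were apart in both sexes by narrow gaps, and 2 of the male dexamethasone arrays were not well above background. The difference was -1.57 ± 0.45 in males (adjusted p = 0.0291) and -0.62 ± 0.45 in females (adjusted p = 0.413). Birc5 (survivin, a subunit of the chromosomal passenger complex) read 1.26, 0.57 and 0.11 with vehicle and -0.69, 0.14 and -1.13 with dexamethasone in males, and -0.32, 0.17 and -0.20 against -0.59, -0.53 and -0.03 in females. Its groups overlapped in both sexes, by male vehicle 3 and male dexamethasone 2 in the males. The fall was -1.21 ± 0.35 in males (adjusted p = 0.0317), and the female difference was -0.27 ± 0.35 (adjusted p = 0.681).

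Aurka (Aurora kinase A, of the spindle poles) read 0.00, -0.66 and -0.77 with vehicle and -1.84, -1.02 and -1.51 with dexamethasone in males, and -0.83, -0.84 and -1.01 against -1.34, -1.20 and -0.99 in females. The male groups were apart. Aurka fell by 0.98 on the log2 scale in males (standard error 0.24, adjusted p = 0.0147), and the female difference was -0.28 ± 0.24 (adjusted p = 0.489). Aurkb (Aurora kinase B, the passenger complex kinase) read -4.02, -5.46 and -5.30 in the male vehicle arrays and was not well above background on any male dexamethasone array (-6.36, -5.99 and -8.39). Female arrays read -5.05, -4.76 and -5.44 with vehicle and -6.33, -6.44 and -5.34 with dexamethasone. In this scaling the male mean was at least 2.51-fold lower with dexamethasone, a bound set by the lowest signals well above background (fit -1.99 ± 0.60, adjusted p = 0.0367), and the female difference was -0.96 ± 0.60 (adjusted p = 0.334). The male Aurkb value was -0.088 with the capped local background (adjusted p = 0.733) and 0.66 after normexp correction (0.519), and the call was also lost with quantile normalization, without the dim filter, with the slide as a block and in a fit to the male arrays alone (0.0532 to 0.0867).

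Plk1 (Polo-like kinase) read -0.97, -1.61 and -2.27 with vehicle and -3.46, -2.24 and -2.87 with dexamethasone in males, and -2.33, -2.50 and -2.57 against -2.85, -3.12 and -2.52 in females. Its groups overlapped slightly in both sexes. It fell by 1.24 on the log2 scale in males (standard error 0.35, adjusted p = 0.0275), and the female difference was -0.36 ± 0.35 (adjusted p = 0.555).

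Of the 6 mitosis genes that did not pass in males, Cdc20 is the activator of the anaphase-promoting complex. It read 1.40, 0.63 and -1.10 with vehicle and -2.08, -0.43 and -1.40 with dexamethasone in males, and 0.12, -0.54 and 0.17 against -1.35, -1.54 and -1.0 in females. Male vehicle 3 lay within the male dexamethasone range, and the female groups were apart. The difference was -1.62 ± 0.57 in males (adjusted p = 0.0671) and -1.22 ± 0.57 in females (adjusted p = 0.196). Male differences of the other genes were -0.99 for Ccna2 (cyclin A2), -1.14 for Ccnb2 (cyclin B2), -0.61 for Cdc25b (a phosphatase that activates Cdk1) and -1.10 for Bub1b (a spindle checkpoint kinase homologue), with adjusted p of 0.0579 to 0.0643 for Ccna2, Cdc25b and Bub1b and 0.0557 for Ccnb2. Bub1, also of the spindle checkpoint, was not well above background on any male dexamethasone array and was not called (adjusted p = 0.131). In this scaling the bound on its male means was 1.56-fold, but the values of the 2 male groups overlapped. The male Bub1 value was -0.003 with the capped local background (adjusted p = 0.993) and 0.79 after normexp correction (0.448), so the bound does not hold in those settings. Female differences of these 5 genes ran from -0.29 to -0.74.

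The mitosis genes varied together between animals of a group more than the other roles did. After the group means were removed, the median correlation between 2 mitosis genes over the 12 arrays was 0.77 (91 pairs), against 0.31 within the licensing group (45 pairs) and 0.17 between the groups. These points share library and scaling, and the values are a description. Male vehicle 1 was the highest of the 12 arrays for 14 of 14 mitosis genes, male vehicle 3 the lowest of its group for 13 of 14, and male dexamethasone 2 and female dexamethasone 3 the highest of their groups for 13 of 14 each.

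The male counts of this group rested on few animals. Without male vehicle 1, 0 of 14 passed in males, and all 8 calls of the full fit were lost (limma adjusted p 0.0584 to 0.148). Among all genes, 1308 fell in males in that fit and 2339 in the full fit. Without male vehicle 2 or male dexamethasone 1, 2 passed, without male dexamethasone 3, 1 passed, and without female vehicle 1, which enters the estimate of spread, 5 passed. Aurka was lost also without male dexamethasone 1 (adjusted p = 0.0511), and Birc5, Mki67, Plk1 and Top2a without male vehicle 2 or male dexamethasone 1 or 3 (0.0572 to 0.108). Cdk1 was lost also without male vehicle 2, female vehicle 1 or male dexamethasone 1 or 3 (0.0503 to 0.112), and Aurkb without male vehicle 3, female vehicle 1 or male dexamethasone 3 (0.0504 to 0.0929). Ccnb1 was lost without any array other than male vehicle 3, male dexamethasone 2, female vehicle 2 and female dexamethasone 3 (0.0529 to 0.148). Without male vehicle 3, Ccna2, Ccnb2, Cdc20 and Cdc25b passed in males (adjusted p 0.00852 to 0.0241), as did Ccna2, Cdc20 and Bub1b without male dexamethasone 2 (0.0247 to 0.0449), Cdc25b without male dexamethasone 1 (0.0429) and Ccnb2 and Bub1b without female dexamethasone 3 (0.05 and 0.033).

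The male calls also rested on the background correction. After normexp correction none of the 8 passed: Aurka, Birc5, Mki67 and Plk1 stayed below 0 (-1.04 to -0.33, adjusted p 0.124 to 0.618), and Ccnb1, Cdk1, Top2a and Aurkb were above 0. Of these, Ccnb1 (0.24) and Cdk1 (0.20) lay below the median of all genes in that setting (0.26). With the capped local background, Aurka, Birc5, Mki67 and Plk1 passed (-1.11 to -0.84, adjusted p 0.0183 to 0.0436), while Top2a (-0.14, adjusted p = 0.552), Ccnb1 (-0.52, 0.18), Cdk1 (-0.47, 0.129) and Aurkb did not, and Ccnb2 and Cdc20 passed there (0.0455 and 0.0489). In a fit to the male arrays alone only Cdk1 passed, and Cdk1 was lost with the mean of its probes (-0.62, adjusted p = 0.174).

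With the slide as a block, 2 of 14 mitosis genes passed in males (Aurka and Birc5), and within slide 1 and within slide 3 all 14 male differences were below 0. In females all 14 were below 0 within slide 1 and 13 of 14 within slide 2.

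**Figure D4:**
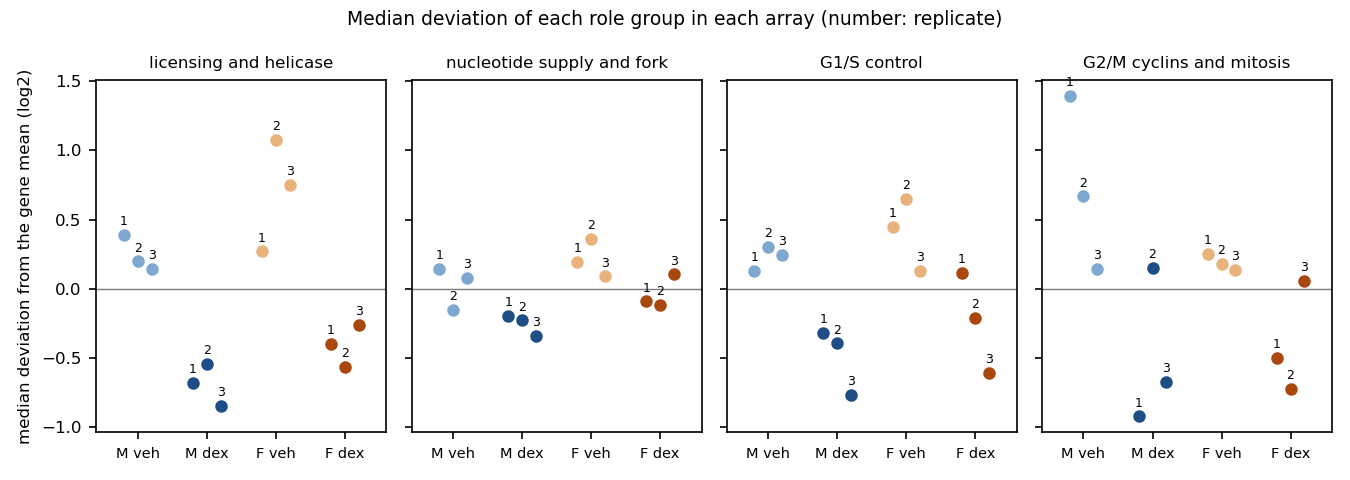
Median deviation from the gene mean (log2, y axis) over the tested genes of each role, 1 point per array with its replicate number; M male, F female, veh vehicle, dex dexamethasone. The 6 dexamethasone arrays of the licensing panel lie at -0.85 to -0.26, below the 6 vehicle arrays at 0.14 to 1.07, while in the mitosis panel male vehicle 1 (1.39), male dexamethasone 2 (0.15) and female dexamethasone 3 (0.055) stand away from their groups.

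The promoters of Cdk1, Cdc20 and Mki67 are shown as examples of mitosis promoters that hold both a CHR match and a CCAAT box. They are the 250 bases before the start at chr10:69352913-69353162, chr4:118437344-118437593 and chr7:135716380-135716629, all on the minus strand (RefSeq, GRCm38.p6), with capitals as above.
Cdk1: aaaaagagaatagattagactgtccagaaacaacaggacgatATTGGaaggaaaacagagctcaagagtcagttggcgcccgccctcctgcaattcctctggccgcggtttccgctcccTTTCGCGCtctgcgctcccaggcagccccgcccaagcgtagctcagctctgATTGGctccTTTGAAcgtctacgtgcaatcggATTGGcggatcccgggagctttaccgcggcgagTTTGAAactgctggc
Cdc20: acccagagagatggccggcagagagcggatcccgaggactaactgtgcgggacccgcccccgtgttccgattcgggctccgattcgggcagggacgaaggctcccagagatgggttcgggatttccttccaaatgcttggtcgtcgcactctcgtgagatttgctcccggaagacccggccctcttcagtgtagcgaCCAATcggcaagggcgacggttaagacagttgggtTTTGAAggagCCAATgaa
Mki67: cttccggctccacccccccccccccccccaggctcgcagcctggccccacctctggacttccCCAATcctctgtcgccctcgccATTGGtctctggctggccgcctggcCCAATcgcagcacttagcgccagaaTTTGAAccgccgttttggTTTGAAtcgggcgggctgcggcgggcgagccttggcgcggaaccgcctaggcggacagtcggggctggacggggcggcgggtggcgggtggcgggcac

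The CHR, through which a repressor complex is known to act on late cell cycle genes, had a match in 6 of 12 mitosis promoters in the table (Ccnb2, Cdk1, Cdc20, Top2a, Mki67 and Bub1b), and 17.1% of all promoters hold one. A CCAAT box stood in 11 of the 12, all but Birc5, against 33.9% of all promoters. Cdk1 alone of the 12 held an E2F match, 131 bases before its start. Of these 6 genes with a CHR match, Cdk1, Top2a and Mki67 passed in males and Ccnb2, Cdc20 and Bub1b did not.

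**Figure D5:**
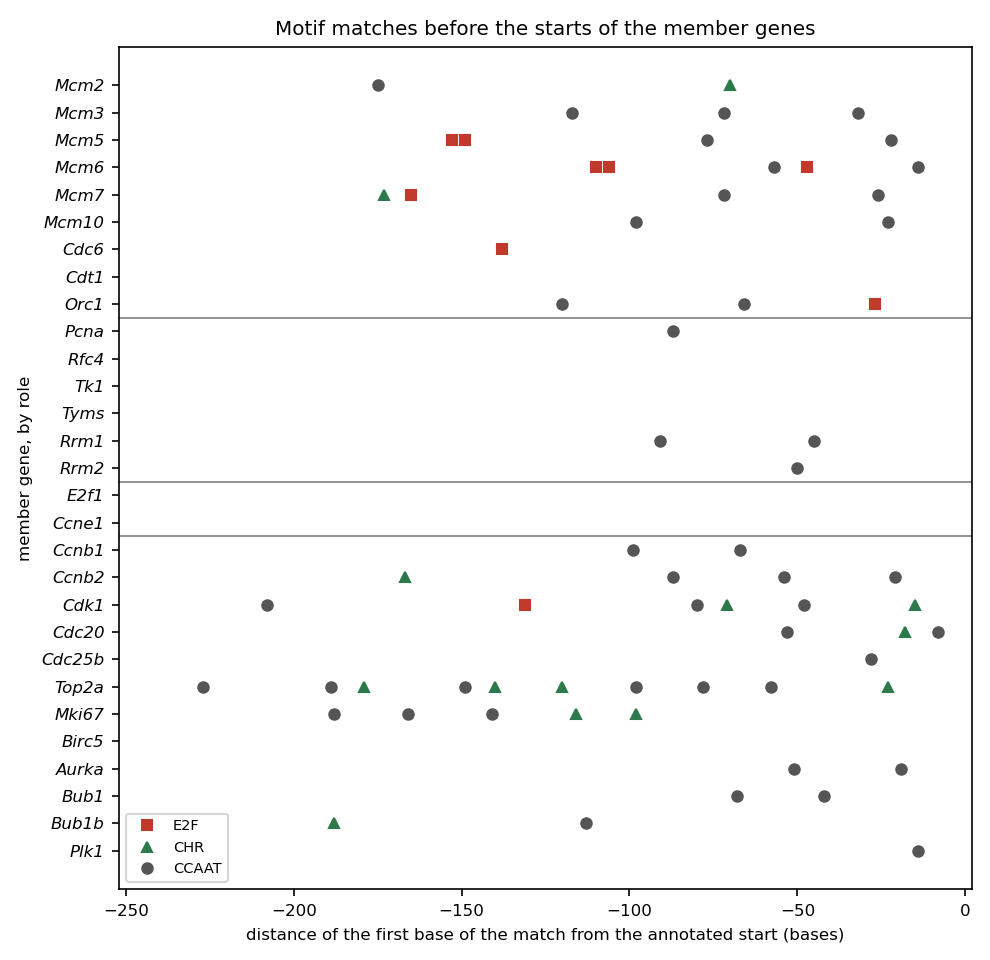
Position of each motif match (x axis, bases from the annotated start to the first base of the match) in the promoters of the 29 genes in the table, by role. E2F matches (squares) stand mainly in the licensing rows, CHR matches (triangles) mainly in the mitosis rows, and a row without a symbol held none of the 3 motifs.

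Markers of other cell types moved with dexamethasone in the same arrays. Of 10 B cell markers, 8 were tested, 5 of them fell in males (Ms4a1, Cd79b, Cd22, Fcmr and Ighm) and 4 in females (12.1% and 6.88% of all genes fell), and Blk and Pax5 were not well above background in any whole group. The mean level of the 8 was -2.81 to -2.35 in male vehicle arrays and -4.40 to -3.80 in male dexamethasone arrays, and -3.08 to -1.90 and -3.99 to -3.21 in the female groups. Of 14 tested T and NK cell markers, 5 fell and 1 rose in males and none fell and 1 rose in females (among all genes 12.1% fell and 10.4% rose in males and 6.88% and 6.79% in females); their mean was -3.73 to -3.34 against -4.06 to -3.54 in males and -3.39 to -2.59 against -3.26 to -2.91 in females. Stellate cell and fibroblast markers averaged 0.93 to 1.36 with vehicle and 0.40 to 0.66 with dexamethasone in males, without overlap, and 1.08 to 1.28 against 0.92 to 1.16 in females; 3 of 8 fell and 1 rose in males and none passed in females. Kupffer cell and macrophage markers averaged 1.28 to 1.68 against 0.83 to 1.17 in males, also without overlap, and 1.65 to 2.36 against 1.47 to 2.48 in females, where the groups overlapped. Of these 10 markers, 1 fell (Adgre1) and 1 rose (Cd163) in males and 1 rose in females. Endothelial, neutrophil, erythroid and cholangiocyte means overlapped between treatments in males (3 of 8, 1 of 6, 1 of 6 and 0 of 7 fell), and 1 endothelial and 1 cholangiocyte marker rose. In females 1 endothelial marker fell and 1 rose, and none of the other 3 lists had a marker that passed. The shares of all genes are those given above. The part of these cells in the falls of the replication and mitosis genes was not tested. Hepatocyte markers, which check the tissue, were bright throughout (mean 5.74 to 6.83), and 5 of 6 rose in males and 4 of 6 in females (10.4% and 6.79% of all genes rose).

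Sex differences in these genes were few. Under vehicle only Ccnd1 differed between the sexes among the 35 genes, where 1.97% of all genes did (0.657% with females higher and 1.31% with females lower). It was 2.80 ± 0.34 higher in females (6.99 times the male level, adjusted p = 0.00174), and was higher in females by 2.42, 3.26 and 2.74 within slides 1, 2 and 3. Under dexamethasone 4 of the 35 differed, 3 with females higher and 1 with females lower (5.81% of all genes differed, 3.27% with females higher and 2.53% with females lower). Mcm10 was lower in females by -2.65 ± 0.34 (0.16 of the male level, adjusted p = 0.00218), and this call was kept in every alternative that gave a test, with adjusted p up to 0.0257. It rests on the same 1 probe, whose specificity could not be checked. Ccnd1 (1.46 ± 0.34, adjusted p = 0.0334), Cdt1 (1.16 ± 0.29, 0.0414) and Ccnd2 (0.85 ± 0.21, 0.0396) were higher in females under dexamethasone. With the slide as a block these 3 did not pass (adjusted p 0.0707 to 0.198), nor did they after normexp correction (0.318 to 0.332) or in a fit to the dexamethasone arrays alone (0.071 to 0.143), and in each case leaving out at least 5 different arrays ended the call (adjusted p 0.052 to 0.136). With the capped local background these 3 passed (limma adjusted p 0.0177 to 0.0309). Male and female arrays also differed in slide position. In this comparison of the sexes under each treatment the other genes did not pass.

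The difference between the responses of the sexes was tested for each gene. None of the 35 passed in the limma fit, and 4 of 35 had an unadjusted p under 0.05, against 1033 of 19340 genes. Calls in 1 sex alone (10 genes lower in males and 1 lower in females, and Mcm10 higher in males) therefore do not show a different response.

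Other genes of replication came from a list of 42. Of 41 tested, 18 fell, 2 rose and 21 did not pass in males, and 12 fell, 2 rose and 27 did not pass in females (among all genes 12.1% fell in males and 6.88% in females), with medians of -0.58 and -0.57, and 11 fell in both sexes (5.57% of all genes). The smallest adjusted p in males belonged to Dck (deoxycytidine kinase, -1.33 ± 0.14, adjusted p = 0.00032), Pola2 (a subunit of DNA polymerase alpha, -1.55 ± 0.18, 0.000403) and Rfc3 (clamp loader, -1.90 ± 0.23, 0.000575). In females they belonged to Rfc3 (-2.18 ± 0.23, 0.00046), Rfc5 (clamp loader, -0.84 ± 0.13, 0.00344) and Rpa2 (single-strand binding, -1.22 ± 0.21, 0.00515). These genes fell in the other sex too. With the slide as a block, Dck and Pola2 were at -0.85 and -0.99 in females (limma adjusted p = 0.0178 and 0.023). Rfc5 and Rpa2 were at -0.93 and -1.15 in males (0.0053 and 0.0149). The female calls of Dck and Pola2 were lost after normexp correction (0.438 and 0.812). After normexp correction the male calls of Dck (-0.65, adjusted p = 0.298), Pola2 (-0.37, 0.543) and Rfc3 (-0.63, 0.425) and the female call of Rfc3 (-0.96, 0.408) were lost, and those of Rfc5 and Rpa2 in females were kept. With the capped local background the calls of Dck, Pola2 and Rfc3 were kept in both sexes. Rfc3 read -1.46, -1.77 and -1.87 with vehicle and -3.41, -4.06 and -3.34 with dexamethasone in males, so it fell where Rfc4 of the same complex did not pass. Orc2, an origin recognition subunit, rose in both sexes by 0.49 and 0.46.

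Of 51 other mitosis genes, 47 were tested; 24 fell and 0 rose in males, and 7 fell and 1 rose in females (12.1% and 6.88% of all genes fell), with medians of -1.21 and -0.54. Cenpa (the centromere histone) fell by 1.99 and 1.39, Spc25 (kinetochore) by 1.85 and 1.11, and Kif23 (a kinesin of cell division) by 1.85 in males (adjusted p 0.000351 to 0.000848 in males, and 0.00344 and 0.0147 for Cenpa and Spc25 in females). Cks1b, a small Cdk-binding protein, fell by 1.61 in females (adjusted p = 0.026). Kif23 also passed in females, and that call was lost with the slide as a block (-0.79, adjusted p = 0.0687). The Spc25 call in females was lost without female vehicle 1 (adjusted p = 0.0551) or female dexamethasone 1 (0.0531), and that of Cks1b without female vehicle 1 or 3 or female dexamethasone 2 or 3 (0.0721 to 0.0876). Cenpa kept its male call when any array was left out. After normexp correction all of these calls were lost, with Cenpa at -0.79 in males (adjusted p = 0.401) and -0.63 in females (0.438), Spc25 at -1.20 and -0.61 (0.0895 and 0.438), Kif23 at 0.21 in males and Cks1b at -1.54 in females (0.0911). The male median of all genes was 0.26 in that setting. With the capped local background these calls were kept, except that of Kif23 in females (-0.275, limma adjusted p = 0.252).

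Among 37 brakes and regulators of the cycle, 7 rose and 7 fell in males and 5 rose and 4 fell in females, beside 10.4% higher and 12.1% lower in males and 6.79% and 6.88% in females over all genes. Cdkn1a (p21), an inhibitor of cyclin-dependent kinases, read -2.78, -3.02 and -4.17 with vehicle and 3.58, 3.66 and 3.56 with dexamethasone in males. In females it read -2.77, -3.95 and -3.06 with vehicle and 2.82, 2.59 and 3.84 with dexamethasone. No array of a treated group came near a vehicle array. It rose by 6.92 ± 0.42 in males and 6.34 ± 0.42 in females (121 and 81.1 times the vehicle level, adjusted p = 2.06e-05 and 5.05e-05). Gadd45g, a stress-induced growth arrest gene, rose by 4.81 ± 0.50 in males (adjusted p = 0.000296) and by 2.61 in females. Wee1, the kinase that holds Cdk1 inactive, fell by 2.63 in males and 1.76 in females (adjusted p = 0.000351 and 0.00429), though after normexp background correction the values were 0.041 and 0.15. The medians of all genes were then 0.26 and 0.24. Both Wee1 calls were kept with the capped local background. Cdk6, a partner of the D-type cyclins, fell by 1.02 in females (adjusted p = 0.00198). It fell in males too, at -0.80 with the slide as a block (adjusted p = 0.0105).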

How the data were processed

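Scanner files of 12 single-colour Agilent arrays were used. Per the submitters' processing notes and the file headers, the authors extracted spot intensities with Agilent Feature Extraction 9.5; the processed signal is an intensity that the software had background-subtracted and detrended, with surrogate values near background. Flags for outlier, saturated and background spots are other columns of the same deposited files. The deposited series values equalled the processed signal at all 45018 spots of each array.

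Processed signals were taken to log2, since the deposited values are linear per the file headers. From each value the same array's 75th percentile (43379 non-control spots) was subtracted. Outlier spots were dropped and spots of a probe averaged. A probe was kept where every array of some group read it well above background (28842 of 41174), and the brightest probe stood for a gene. Names were updated with RefSeq (GRCm38.p6): 22951 probes matched by accession, 6659 by symbol and 3109 by synonym; the other 8455 carry the name in the files. Probe coordinates are those of the array design (mm7).

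The 19340 genes were fitted with limma 3.58.1 in R 4.3.3 (4 group means, 12 arrays, 8 residual degrees of freedom), with Benjamini-Hochberg adjustment over all genes in each of 5 comparisons and a threshold of 0.05. On simulated data, noise was normal and independent for each gene, and 200 of 19340 genes were changed in male dexamethasone. In the male comparison the fit recovered 48% of genes changed by 1 log2 unit and 88% of those changed by 2. It made 13 false calls. The real male comparison had 4359 calls and genes that varied together, so these shares are not the power of this experiment. Where a group was below background on all arrays, a fold is a lower bound in the main scaling. It uses the lowest signal well above background of any probe on the array, which is not the detection limit of the probe itself. Promoters came from RefSeq, and figures were drawn with matplotlib 3.10.9. The precision is limited by the number of arrays.

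The genes, their roles, the related lists and the marker lists were chosen with earlier results of these data known. Values on every array are given for genes that passed in a dexamethasone comparison, and of each related list the 3 genes with the smallest adjusted p in each sex are named, with Cdkn1a. Mcm7, Rrm1 and Cdc20 were added to those shown array by array after their values were seen. Alternatives were 2 background corrections by normexp (offset 50; the one with local background capped at each array's 99.9th percentile was chosen after seeing the data), quantile and median scaling, other probe filters, the mean of probes, slide and replicate blocks, fits to the compared groups alone, values within a slide, and leaving out each array.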

Additional observations from a re-analysis of the deposited data

How the results depend on the processing

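With each array left out in turn, genes called ran from 2342 to 5026 in males and 1504 to 2568 in females, and members called lower from 7 to 20 and 6 to 10. Members called higher ran from 0 to 2 in males and stayed at 1 in females. Licensing members called lower ran from 4 to 6 and 5 to 6, nucleotide supply members from 1 to 1 and 0 to 1, G1/S members from 2 to 3 and 1 to 3, and mitosis members from 0 to 11 and 0 to 0. The member median ran from -1.13 to -0.80 in males and -0.80 to -0.42 in females. For the difference between the sexes, 1 to 32 genes and 0 members were called, with a member median of 0.14 to 0.35. Between the sexes, 158 to 436 genes and 1 to 3 members were called under vehicle (median -0.33 to -0.00) and 455 to 1281 genes and 1 to 4 members under dexamethasone (median 0.09 to 0.43).

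Normexp background correction moved the median of all genes to 0.26 in males and 0.24 in females. It called 908 genes in males and 536 in females. Members called lower were 4 and 3, of them 2 and 3 in licensing, 1 and 0 in G1/S control, 0 in mitosis in males and 0 in nucleotide supply in females, and 1 member was higher in males. The member medians were -0.33 and -0.32. It called 0 genes for the difference between the sexes (median 0.056), 88 genes between the sexes under vehicle, and 59 genes and 1 member under dexamethasone (median -0.047). With the capped local background the medians were -0.52 in males, -0.26 in females and 0.059 for the difference, with 2 genes called for the difference and 2 members between the sexes under vehicle. The cause was not tested.

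Within slide 1 the member median was -0.87 in females, -0.024 for the difference between the sexes (reversed, from 1 array a group), 0.14 between the sexes under vehicle and -0.34 under dexamethasone; within slide 2 the vehicle value was 0.12. With the slide as a block, 10 members were lower in males, 2 of them in mitosis, and 244 genes and 1 member differed between the sexes under dexamethasone. Fits to the compared groups alone called 11 members lower and 1 higher in males, 1 of them in mitosis, 1180 genes in females with 0 in nucleotide supply and 1 in mitosis, 224 genes between the sexes under vehicle, and 491 genes and 1 member under dexamethasone. Without the filter on dim probes, 5 mitosis members were lower in males, 2278 genes were called for the difference and 4233 between the sexes under dexamethasone. Median scaling left 0 nucleotide supply members lower in females, and quantile normalization called 2 members between the sexes under vehicle. With probes above background on all arrays, or the mean of probes, 0 genes were called for the difference.

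The labels give the groups the same replicate numbers. Deviations of same-numbered arrays correlated at -0.22 to 0.33 over the sexes and treatments compared. Those of differently numbered arrays correlated at -0.404 to 0.34, so no closer likeness by number was seen. Some same-numbered arrays, such as female vehicle 2 and female dexamethasone 2, also shared a slide. Whether same-numbered samples share anything else was not tested. With the replicate number as a block, 3 mitosis members were lower in males, 244 genes were called between the sexes under vehicle, and 703 genes and 1 member under dexamethasone; other calls counted over the members stayed within 1.5 times.

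Single genes turned sign as follows, the first 10 of them after being called. After normexp correction, called values turned for Aurkb (0.66), Ccnb1 (0.24), Ccne2 (0.60), Cdk1 (0.20), Kif23 (0.21), Top2a (0.63) and Wee1 (0.041) in males and for Kif23 (0.40) and Wee1 (0.15) in females, and Ccne2 in males was 0.009 with the capped background. Uncalled values turned after normexp for Bub1 (0.79), Bub1b (0.45) and Cdc25b (0.051) in males and for Aurkb (0.65), Bub1 (0.78, and 0.043 with the capped background), Bub1b (0.56), Ccna2 (0.20), Ccnb1 (0.55), Ccne2 (0.56), Cdc25b (0.26), Cdc6 (0.57), Cdk1 (0.25), Plk1 (0.19) and Top2a (0.76) in females. The medians of all genes were 0.26 in males and 0.24 in females after normexp, and 0.11 and 0.068 with the capped background. Values above 0 but below these medians are not rises relative to all genes. With the mean of probes Cdc6 in males was -0.49 and Cdk1 in females 0.32. Within slides, Birc5 in females was 0.006, Ccnd1 in males -0.31, Cdc6 in males -0.56, Mcm7 in females -0.23 and Pcna in males 0.14. With an array left out, Ccnd1 in males ran from -0.17 to 0.53, Cdc6 in males from -0.46 to 0.82, Mcm10 in females from -0.30 to 0.041 and Rrm1 in females from -0.11 to 0.01. Dim signals limit Orc1, Bub1, Aurkb, Ccnb1, Top2a and Cdc6, whose spots were below background on some arrays.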

Other observations

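Over the 12 arrays, the gene whose profile was most like that of Mki67 was Cenpe (Pearson r = 0.984), followed by Cdca5 (0.98), Melk (0.976) and Top2a (0.971), and 6 of its 10 nearest genes stood in the lists of mitosis genes used here. Mcm2 had other neighbours. Its nearest profiles were those of Ifit1 (0.983), Ifit3 (0.981), Sema4a (0.981) and Isg15 (0.98), of which Ifit1, Ifit3 and Isg15 are interferon-induced genes, and none of its 10 nearest genes stood in those lists. The nearest profiles to Rrm2 were Wbp1l (0.983) and Ccdc151 (0.979), those to Mcm10 were Aadat (0.962) and Trit1 (0.952), and those to Ccnd1 were Socs5 (0.938) and Prlr (0.928), the prolactin receptor. These correlations mix treatment, sex and array, share scaling, and were picked as the highest of many genes, so they describe these 12 arrays.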
